A study of Mus musculus with 41 samples.

Results

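Hippocampal RNA of 8 male mice ranked as low in cognition was compared with that of 14 male mice whose ranking was inconsistent, 22 of the 41 mice measured. Members were chosen by their written ranking alone, so no expression value entered the choice. All mice belonged to the inbred strain C57BL/6J, entered testing at an age of 10 weeks, and carried no transgene or drug treatment in their labels. Each passed through the same battery, in which 5 tests scored learning and memory: the Barnes maze at 10 to 11 weeks, the radial maze at 12 to 14 weeks, the T-maze at 15 to 19 weeks, fear conditioning at 33 weeks and passive avoidance at 37 to 38 weeks. Hippocampi were taken 1 month later, and each mouse has 1 biotin-labelled sample on 1 Affymetrix expression array. A low mouse is one that both ranking systems of the study placed in the low class, and an inconsistent mouse is one on which those systems differed. Ranks rest on 11 measured parameters in the 39 mice with complete data. The other arrays came from 12 medium mice, 5 high mice and 2 mice with incomplete behavioural data. Inconsistent replicate 2 carries a contradictory label, which also calls it consistently medium. It was kept in the inconsistent group. The groups are classes of behaviour in genetically alike animals and not a disease model, and the tests themselves preceded the RNA by a month or more.

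The hippocampus stores new spatial and contextual memories. Its granule cells in the dentate gyrus, pyramidal cells in fields CA1 to CA3 and interneurons that release GABA are surrounded by astrocytes, oligodendrocytes, microglia and vessels, and the choroid plexus and meninges lie against it and can be carried along in dissection. Neurons that have just fired switch on immediate early genes such as Fos and Arc within minutes. Lasting changes of synapses draw on glutamate receptors, scaffolds, calcium-dependent kinases and enzymes that modify chromatin. The comparison asked whether the hippocampus of mice at the lower end of the ranking differed from that of mice with no settled rank.

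Values are log2(intensity + 16) after quantile normalization, and a difference is the low mean minus the inconsistent mean. Because of the offset, the difference of a dim gene is understated. The brightness filter kept all 12 dentate granule cell markers and 15 of 17 CA pyramidal cell markers, and 11 of 16 striatal markers. The median of the deposited intensities lay between 22.4 and 47.2 in low and between 25.8 and 55.2 in inconsistent arrays. The 41 arrays were clustered by their bacterial and phage spike-in controls into a smaller and a larger set, a number of sets fixed in advance. These sets held 7 and 34 arrays. The smaller set held 1 low array, replicate 1, and 3 inconsistent arrays, replicates 2, 3 and 4. Pairs of arrays correlated with a median r of 0.985 within the low group, 0.986 within the inconsistent group and 0.986 between them, and the lowest r within the low group was 0.967.

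No gene was found to differ between low and inconsistent mice. Of 22519 probe sets tested with limma, 0 (0%) passed a Benjamini-Hochberg adjusted p of 0.05 in either direction, and the smallest adjusted p was 0.846. An unadjusted p under 0.05 was reached by 976 of them, or 4.33%, of which 437 were higher and 539 lower in low mice. An exact rank-sum test in place of limma gave 820 at an unadjusted p under 0.05 and also 0 after adjustment. In 0 probe sets (0%) did the 8 low arrays lie wholly above or below the 14 inconsistent arrays. The differences ran from −0.54 to 0.62 with a median size of 0.05, and 8 exceeded 0.5 in size.

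The number of arrays bounds most genes closely. The 95% confidence interval of a difference extended a median of 0.14 to either side. The whole interval lay within 0.25 of 0 for 73.4% of probe sets, within 0.5 for 98.5% and within 1 for 99.9%. A log2 difference of 1, a doubling of the intensity plus the offset, therefore lay outside the interval for all but 28 of them. A doubling of the intensity alone gives less than 1 in a dim gene, so this bound need not exclude it. Of these 28, 13 probe sets belong to 8 genes of the choroid plexus list, among them Ttr, Clic6, Folr1, Kcnj13 and Kl, and 0 belong to the lists of activity-dependent genes. Ecrg4, Sulf1, Slc2a12, Fmod, Rdh5, Pcolce and Lbp were also among the 28, and 6 probe sets had no single symbol. Sema3f was the only one of the 28 with a lower mean in low mice, at −0.34 with an interval from −1.11 to 0.43. The spread between mice was alike in the groups, with a median SD of 0.16 in low and 0.15 in inconsistent mice.

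**Figure D1:**
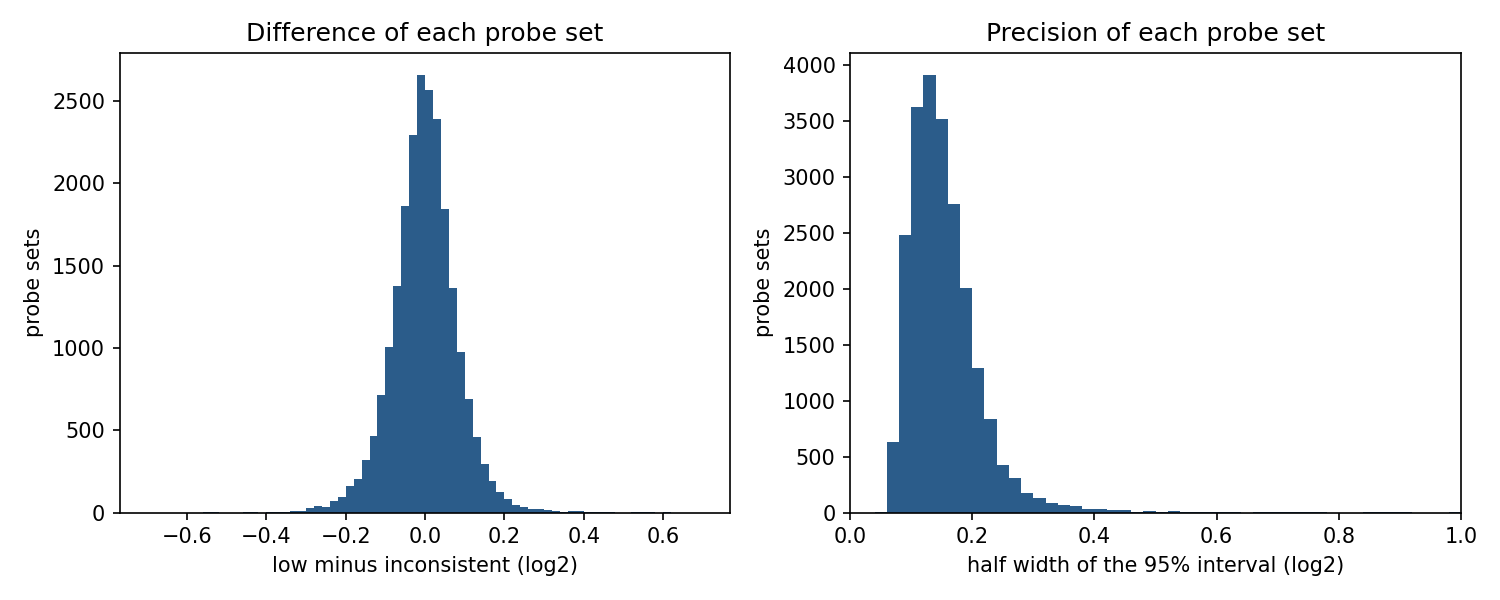
Left, the number of probe sets (vertical axis) by log2 difference, low minus inconsistent, in bins of 0.02, over 22519 probe sets. Right, the number of probe sets by the width of the 95% confidence interval on either side of the difference, with the axis cut at 1. Differences centre on 0 and reach from −0.54 to 0.62, and the median interval extends 0.14 to either side.

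Since nothing passed the test, the genes with the smallest unadjusted p are described as values. Among 12 genes with a higher mean in low mice were an enzyme of vitamin A metabolism, an actin-filament protein, an ion channel with a kinase domain, a nuclear calcium-dependent kinase and a synaptic scaffold. Among 12 with a lower mean were a metabolic peptide, a mitochondrial ribosomal protein, a splicing regulator and a lysosomal amino acid sensor. The 24 differences had a median size of 0.24 and ranged in size from 0.18 to 0.37. Of the 24 probe sets, 8 were the brightest of their gene and 7 had a mean above the median of those tested.

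Retsat, retinol saturase of the endoplasmic reticulum, had the smallest p of all. Its levels in low mice had a lowest value of 6.11, a median of 6.26 and a highest of 6.45, against 5.84, 6.02 and 6.21 in inconsistent mice. The groups overlapped, although 5 of 8 low arrays lay above every inconsistent array. The difference was 0.25 ± 0.05 (SE), a fold of 1.19 in the intensity plus the offset. Its unadjusted limma p was 3.76e-05 and its adjusted p 0.846. A second Retsat probe set had a difference of −0.05 ± 0.09, so the direction was not shared within the gene.

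Cask, a membrane-associated scaffold that binds neurexins at synapses, had the largest difference of the 24. Low mice ranged from 8.13 to 8.41 with a median of 8.22, and inconsistent mice from 7.39 to 8.32 with a median of 7.92. All 8 low arrays lay above the inconsistent median, and the spread was wider in inconsistent mice (SD 0.31) than in low mice (SD 0.09). The difference was 0.37 ± 0.11 (SE), with an interval from 0.15 to 0.59. Its 3 other probe sets gave 0.08, 0.02 and 0.01.

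Camk4, the calcium/calmodulin-dependent kinase that phosphorylates CREB in the nucleus, had low values of 6.25, 6.36 and 6.51 (lowest, median, highest) and inconsistent values of 5.91, 6.15 and 6.40. All low arrays lay above the inconsistent median, and 3 lay above every inconsistent array. The difference was 0.22 ± 0.06 (SE). Its 3 other probe sets gave 0.13, 0.04 and −0.03.

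Tpm1, a tropomyosin of actin filaments, ranged from 8.12 to 8.48 in low mice and from 7.78 to 8.24 in inconsistent mice, with medians of 8.23 and 8.03. Here 4 low arrays lay above every inconsistent array, and the difference was 0.22 ± 0.05. Its second probe set pointed the same way, at 0.14 ± 0.08. Kctd1, a BTB-domain repressor of AP-2 transcription factors, differed by 0.27 ± 0.08, and its second probe set by 0.14 ± 0.05 with an unadjusted p of 0.013. Trpm7, a magnesium-permeable channel fused to a kinase, differed by 0.28 ± 0.07, while its other probe sets gave 0.10, 0.05 and −0.16. Those last values lie on both sides of 0, so the gene as a whole showed no common direction.

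The remaining genes with a higher mean in low mice were Mb21d2 at 0.21, the small nucleolar RNA host gene Snhg1 at 0.31, 4932438A13Rik at 0.19, the RNA-binding protein gene Strbp at 0.19, the nuclear pore gene Nup155 at 0.18 and Casp8, an initiator caspase of apoptosis, at 0.25. For Mb21d2, 6 of 8 low arrays lay above all inconsistent arrays, the most among these 12 genes.

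Among genes with a lower mean in low mice, Nudt17, a Nudix hydrolase, led. Its lowest, median and highest values were 6.10, 6.33 and 6.52 in low mice against 6.38, 6.61 and 6.80 in inconsistent mice. All 8 low arrays lay below the inconsistent median and 5 lay below every inconsistent array. The difference was −0.26 ± 0.06.

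Enho encodes adropin, a secreted peptide tied to energy balance. It ran from 7.92 to 8.36 in low mice with a median of 8.16, and from 8.23 to 8.49 in inconsistent mice with a median of 8.35. Although 6 low arrays lay below every inconsistent array, 1 lay above the inconsistent median. The difference was −0.20 ± 0.05, and −0.06 ± 0.07 at the other probe set.

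Sfswap, a regulator of alternative splicing, was the gene with the most probe sets pointing one way. Low mice ranged from 7.03 to 7.46 with a median of 7.13, and inconsistent mice from 7.18 to 7.83 with a median of 7.49. The difference was −0.29 ± 0.07. The groups overlapped, with 5 low arrays below every inconsistent array. A second probe set gave −0.32 ± 0.11 with an unadjusted p of 0.00771, and the other 4 gave −0.14, −0.10, −0.07 and −0.06. Probe sets of 1 gene share its transcripts and arrays and are not independent.

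Mrpl11, a protein of the large mitochondrial ribosomal subunit, differed by −0.32 ± 0.08 at the leading probe set, and by −0.14 ± 0.13 and −0.02 ± 0.05 at its others. Slc38a9, which reports lysosomal arginine to the mTOR pathway, differed by −0.33 ± 0.09, and its 4 other probe sets lay between −0.06 and 0.02. Rnf170, an ubiquitin ligase of the endoplasmic reticulum, differed by −0.33 ± 0.09, while its other probe sets both gave 0.08. Ly6e, a surface protein held by a lipid anchor, differed by −0.18 ± 0.05, against 0.03 ± 0.05 at its second probe set. In each of these 4 genes the other probe sets lay nearer 0.

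The remaining lower means were those of Trmt5, a transfer RNA methyltransferase, at −0.24, Brat1, a partner of the DNA damage kinase ATM, at −0.27, the keratin gene Krt1 at −0.20, Tlcd5 at −0.21 and the endocytic scaffold gene Itsn2 at −0.24. Over the 24 genes, 18 had further tested probe sets, 43 in all. Of these 43, 31 pointed the same way as the leading probe set and 12 the other way, 2 had an unadjusted p under 0.05, and their median in the leading direction was 0.04. Without any single array, 0 of the 24 differences turned sign or moved by over 1.5 times. The 24 were chosen on these same arrays by the smallest p, which favours such steadiness, so it lends them no support.

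**Figure D2:**
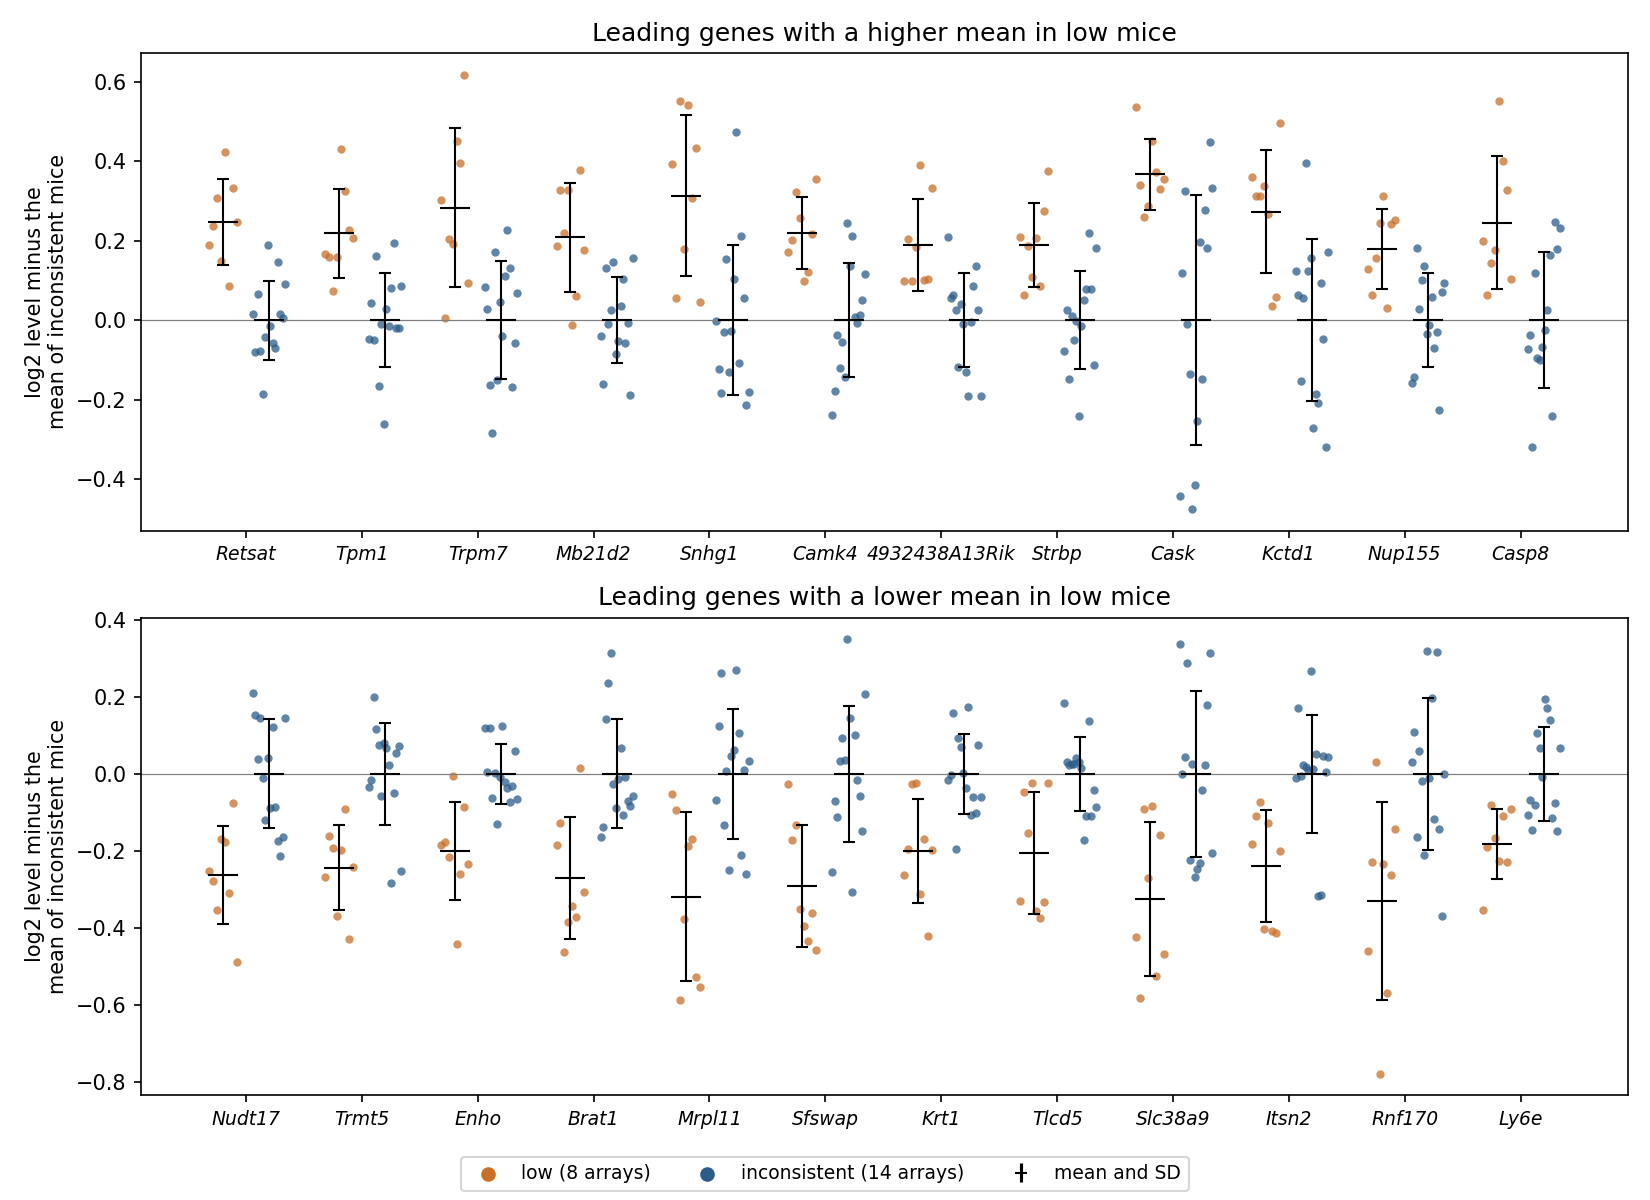
Log2 level of the 24 genes with the smallest unadjusted p, each array less the mean of the inconsistent group; points are arrays, and bars give the mean and SD. Above are the genes with a higher mean in low mice and below those with a lower mean. In every gene the arrays of the groups overlap, and none passed the adjusted threshold.

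Genes fixed for their roles in plasticity and chromatin showed no difference past the test, though not all were closely bounded. Fos, a transcription factor induced by firing, had a lowest value of 7.39, a median of 9.50 and a highest of 9.90 in low mice, and 7.95, 9.58 and 10.32 in inconsistent mice. Its difference was −0.10 ± 0.37, with an interval from −0.87 to 0.66. Arc, which trims glutamate receptors from active synapses, ran from 7.84 to 9.32 in low and from 7.81 to 9.71 in inconsistent mice, with medians of 8.92 and 8.91. Its difference was −0.03 ± 0.25, and the groups overlapped almost wholly. Both signs turned under some alternatives: Fos lay between −0.15 and 0.12, and Arc between −0.18 and 0.12. Without single arrays Fos lay between −0.21 and 0.15, and Arc between −0.10 and 0.11 with its sign turned in 8 of 22.

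Of 16 immediate early transcription factors tested, 6 had a higher and 10 a lower mean in low mice, and 0 had an unadjusted p under 0.05, beside 1.71% of all 11218 genes on the higher and 1.73% on the lower side, each gene at its brightest probe set. The median of the list was −0.01, against 0.00 over all genes. It turned sign in 5 of 20 alternatives, among them no normalization and arrays centred on their medians. Without single arrays the median lay between −0.05 and 0.05 and turned sign in 6 of 22. Egr1 differed by 0.13 ± 0.19, Npas4 by −0.15 ± 0.30 and Nr4a1 by −0.05 ± 0.18, and without low replicate 6 these 3 stood at 0.24, 0.02 and 0.05. The mean level of the list ran from 7.78 to 8.71 in low mice and from 7.82 to 8.83 in inconsistent mice. The spread among mice was thus wide in both groups, and the group means of the list were 8.37 in low and 8.39 in inconsistent mice. Intervals as wide as that of Fos cannot show that the means of a gene are equal.

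Immediate early levels are also given by spike-in set. In the 4 arrays of the smaller spike-in set, Fos lay between 9.88 and 10.18. In the other 18 it lay between 7.39 and 10.32 with a median of 9.00. Arc lay between 9.32 and 9.71 in the former and between 7.81 and 9.39 in the latter. The ranges overlapped, and the part of the spike-in split in these levels was not tested. With the larger spike-in set alone, the median of the list was 0.02.

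Fos, Nr4a1 and Npas4 are shown with the 250 bases before their start sites. They vary widely among mice but were picked by name, and not every immediate early gene of wide range is shown. CREB, the target of calcium-dependent kinases such as Camk4, binds the cAMP response element. Sequences are RefSeq, build GRCm38.p6, written 5′ to 3′ on the gene's strand. Capitals mark TGACG or its complement CGTCA, a part of that element, searched on both strands.
Fos, chr12:85473640-85473889, plus strand: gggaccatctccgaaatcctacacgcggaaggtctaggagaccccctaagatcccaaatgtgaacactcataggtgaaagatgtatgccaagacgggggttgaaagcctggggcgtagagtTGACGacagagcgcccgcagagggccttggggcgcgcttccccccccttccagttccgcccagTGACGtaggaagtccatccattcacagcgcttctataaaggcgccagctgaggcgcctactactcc
Nr4a1, chr15:101266596-101266845, plus strand: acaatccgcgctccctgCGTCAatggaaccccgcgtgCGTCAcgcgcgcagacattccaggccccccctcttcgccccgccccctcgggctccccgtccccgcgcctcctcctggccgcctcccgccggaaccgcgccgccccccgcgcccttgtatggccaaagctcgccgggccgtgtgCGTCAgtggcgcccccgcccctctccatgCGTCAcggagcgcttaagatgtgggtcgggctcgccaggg
Npas4, chr19:4989972-4990221, minus strand: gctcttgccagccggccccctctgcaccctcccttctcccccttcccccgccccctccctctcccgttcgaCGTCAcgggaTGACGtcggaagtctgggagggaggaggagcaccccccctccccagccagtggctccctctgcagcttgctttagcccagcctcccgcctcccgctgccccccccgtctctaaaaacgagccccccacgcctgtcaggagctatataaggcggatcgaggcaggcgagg
The Fos window holds 2 matches, which begin 129 and 66 bases before the start site. The Nr4a1 window holds 4 and the Npas4 window 2. Of 32851 promoters in the table, 17.8% hold at least 1 match and 3.90% hold 2 or more in a window of the same length. Since the genes were picked by name, their matches beside these shares are no test of enrichment. A match describes letters and is not a measured binding site.

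Activity-dependent effectors numbered 19, with 10 higher and 9 lower means, 0 at an unadjusted p under 0.05 and a median of 0.00. Bdnf, the neurotrophin that strengthens synapses, differed by 0.03 ± 0.07 at its brightest probe set, with ranges of 8.88 to 9.42 in low and 8.77 to 9.28 in inconsistent mice. A dimmer Bdnf probe set gave 0.19 ± 0.09. Npy, an inhibitory neuropeptide of interneurons, ran from 9.30 to 10.36 with a median of 9.60 in low mice and from 9.35 to 10.02 with a median of 9.51 in inconsistent mice. Its difference was 0.10 ± 0.10, and 0.00 without low replicate 5, the array at 10.36. The receptor gene Npy1r differed by 0.11 ± 0.09.

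Receptors and scaffolds of glutamate synapses showed no difference past the test. Grin2b, a subunit of the NMDA receptor that opens when glutamate meets depolarization, differed by 0.01 ± 0.10. The 5 NMDA subunits tested lay between −0.04 and 0.03. Of 12 AMPA receptor and auxiliary genes, 9 had a higher and 3 a lower mean, with a median of 0.02; Cacng8, an auxiliary subunit, stood at −0.28 ± 0.16. Kainate and metabotropic receptor genes, 5 higher and 6 lower, had a median of −0.03. It turned sign in 4 of 20 alternatives, among them no normalization and arrays centred on their medians. Of these genes, Grik4 differed by −0.15, Grm8 by 0.16 and Grm2 by 0.09. Grik4 stood at −0.07 without low replicate 5. Camk2a, the abundant postsynaptic kinase, differed by 0.07 ± 0.11. Of 22 scaffolds and kinases, Dlgap4 alone had an unadjusted p under 0.05, at −0.12 ± 0.05, and of 22 genes of vesicle release it was Vamp1, at 0.16 ± 0.07. GABA-A subunits had 1 higher and 8 lower means with a median of −0.02, which turned sign in 3 of 20 alternatives, the same scalings among them.

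The title of the study concerns epigenetic regulation, and the gene lists of that kind had medians near 0. Single members ranged further, from −0.21 to 0.15 in histone methyltransferases and demethylases and from −0.13 to 0.13 in DNA methylation genes. RNA levels of these genes do not measure the epigenetic marks themselves. Dnmt3a, a DNA methyltransferase, ran from 7.43 to 7.98 in low mice and from 7.48 to 7.93 in inconsistent mice, with medians of 7.70 and 7.75 and a difference of −0.03 ± 0.07. Hdac2, a histone deacetylase, differed by −0.02 ± 0.04 and the acetyltransferase gene Crebbp by 0.03 ± 0.05. The groups overlapped in all 3 genes. The list of 10 DNA methylation genes had a median of 0.04 and the 13 acetyltransferases one of −0.0005. Deacetylases and sirtuins, the third lowest list, had 4 higher and 14 lower means with a median of −0.03, which lay above 0 without normalization and with arrays centred on their medians. Their 3 smallest p belonged to Hdac6 at −0.11, Hdac10 at −0.11 and Sirt2 at −0.09, none under 0.05. Without low replicate 5, which stood at 7.40 in Hdac6 where the next low array stood at 8.03, Hdac6 differed by −0.03 and Sirt2 by −0.06. Of 31 histone methyltransferases and demethylases, 1 had an unadjusted p under 0.05, Kmt2c at −0.11 ± 0.05.

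A further set of genes was fixed from earlier results of these data on high mice, and the levels of high mice are given only for placement. Bloc1s2, a subunit of complexes that build and position lysosome-related organelles, had a lowest value of 8.79, a median of 8.95 and a highest of 9.04 in low mice, and of 8.85, 9.03 and 9.17 in inconsistent mice. High mice ran from 9.19 to 9.36. Low and inconsistent mice overlapped, and every high array lay above both groups. The low minus inconsistent difference was −0.08 ± 0.05, with an interval from −0.17 to 0.01, and 0.01 without normalization. For comparison, the low minus high difference was −0.35 ± 0.05 in a fit over all 41 arrays, which uses the same low arrays.

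Rbm14, an RNA-binding coactivator found in paraspeckles, ran from 8.06 to 8.47 in low mice and from 8.12 to 8.64 in inconsistent mice, with medians of 8.37 and 8.38. Its difference was −0.05 ± 0.07, while the mean of high mice was 8.72. At its dimmer probe sets the low minus inconsistent differences were −0.07, 0.05 and 0.09, on both sides of 0. Elp4, a subunit of the Elongator complex that modifies transfer RNA, differed by 0.01 ± 0.06, and P4ha2, a collagen prolyl hydroxylase, by −0.12 ± 0.09. Inip, a subunit of the SOSS complex of DNA repair, gave 0.02, 0.04 and −0.10 at its 3 probe sets. The cyclin gene Ccni gave 0.05 at its brightest probe set, and 0.24 ± 0.08 at its dimmest, with an unadjusted p of 0.00727. Epb41l1, which ties receptors to the cytoskeleton, differed by 0.00 ± 0.06 and the ciliary rootlet gene Crocc by 0.04 ± 0.11. At the brightest probe set, the intervals of Bloc1s2, Elp4, Inip, Ccni and Epb41l1 reached at most 0.17 from 0, while those of P4ha2, Crocc and Rbm14 reached −0.30, 0.26 and −0.19.

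**Figure D3:**
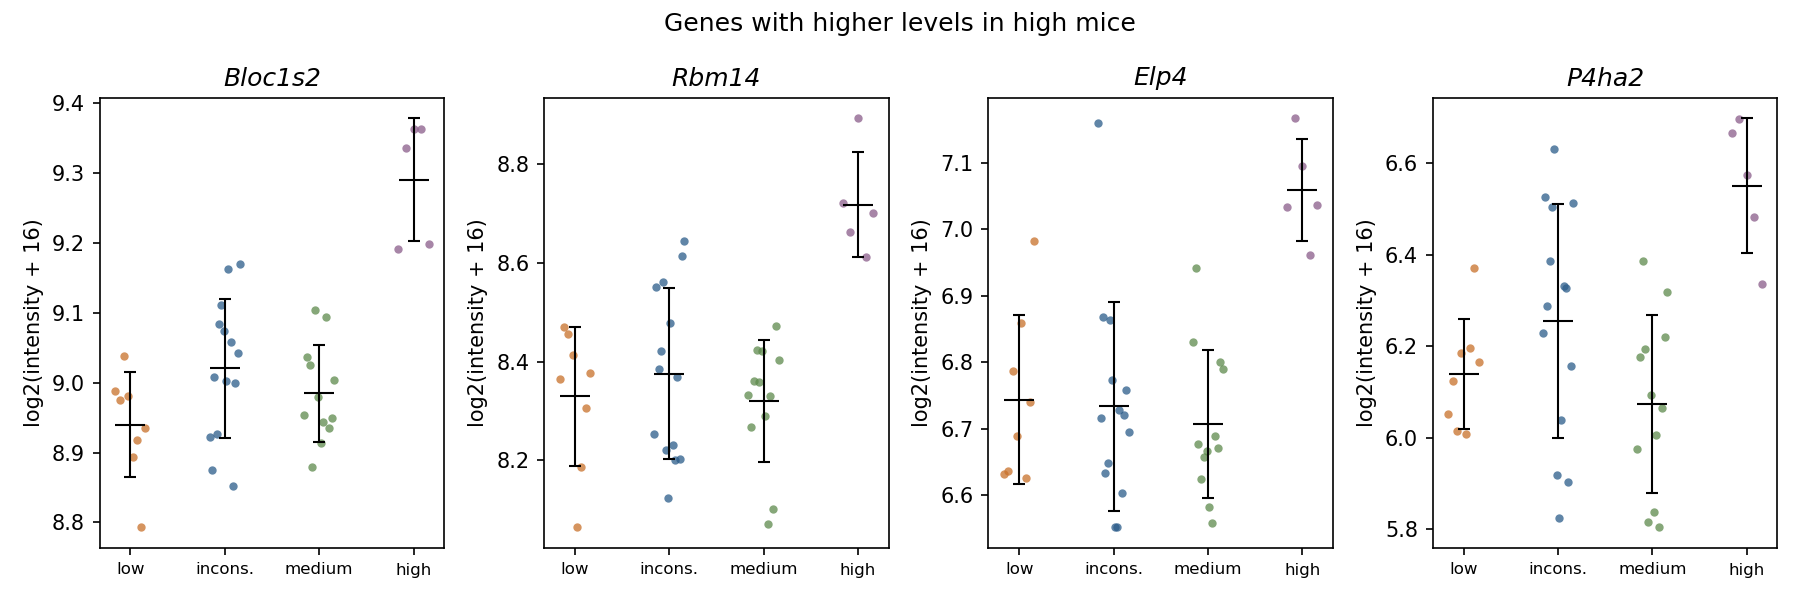
Levels of Bloc1s2, Rbm14, Elp4 and P4ha2 as log2(intensity + 16), 1 point per array, by group, with mean and SD. The axes start above 0 and differ between panels. Low and inconsistent arrays overlap in all 4 genes, and the mean of high mice lies above both. Each gene is shown at its brightest tested probe set, and other Rbm14 probe sets had smaller low minus high differences.

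Across 38 gene lists with at least 5 tested members, 16 medians lay above 0 and 22 below, from −0.05 to 0.45. All 22 below 0 lay above 0 without normalization, which moved the median of all probe sets to 0.08, and all but the striatal list did so with arrays centred on their medians, which moved it to 0.04. Of 856 listed genes 726 were tested, 5 had an unadjusted p under 0.05 with a higher mean and 9 with a lower mean, and 0 passed adjustment. The shares stayed below the 1.71% and 1.73% of all genes.

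The marker lists of tissues that border the hippocampus stood highest. Of 16 choroid plexus markers, 9 passed the brightness filter. All 9 had a higher mean in low mice, beside 50.2% of all genes. Their median was 0.45, and 0 of them had an unadjusted p under 0.05. The 9 markers share a tissue and arrays and are not independent, so their count beside that percentage is no test. The filter used the mean over all arrays, so arrays bright in these markers can have helped them to pass. Ttr, the thyroxine carrier made by choroid epithelium, ran from 7.72 to 13.45 with a median of 12.09 in low mice and from 9.23 to 13.28 with a median of 11.41 in inconsistent mice. Its difference was 0.01 ± 0.69 at the brightest probe set, and its dimmer ones gave 0.05 ± 0.72, 0.11 ± 0.77 and 0.24 ± 0.88. Slc13a4, a sulfate transporter of the same epithelium, ran from 4.53 to 8.20 against 4.17 to 7.76, and differed by 0.62 ± 0.48, the largest of all probe sets, or by 0.38 without low replicate 6 and likewise without 7. The arrays were scattered over this range in both groups.

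The mean of the choroid list set arrays apart. It lay at 8.76 or above in 3 low and 3 inconsistent arrays, and at 7.34 or below in the other 16. Those bright arrays make up 3 of 8 low and 3 of 14 inconsistent mice. Among the others, the list ran from 5.88 to 7.34 with a median of 6.81 in 5 low mice and from 6.41 to 7.33 with a median of 6.68 in 11 inconsistent mice. The median difference of the list was −0.10 without the 6 bright arrays, 0.05 in the larger spike-in set alone and 0.97 with replicate numbers as a block, and leaving out single low arrays gave 0.20 without replicate 1, 0.26 without replicate 6 and 0.13 without replicate 7. In bulk tissue, fewer cells of a type and less RNA per cell cannot be told apart.

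Meningeal fibroblast markers, 6 with a higher and 4 with a lower mean, had a median of 0.19 and were the list with the largest share at an unadjusted p under 0.05, 2 of 10. These were Col1a2, a collagen chain, at 0.33 ± 0.15, and Ogn, a matrix proteoglycan, at 0.38 ± 0.18. Without low replicate 6 they stood at 0.20 and 0.23. Ogn ran from 7.37 to 8.82 in low mice and from 6.99 to 8.35 in inconsistent mice, with all 8 low arrays above the inconsistent median. Dcn and Lum, other matrix proteoglycans of these cells, stood at −0.15 and −0.12. The 6 choroid-bright arrays had a median list level of 7.97 and the other 16 one of 7.72. Without the 6, the median difference was −0.03, and it was 0.07 without low replicate 6 and 0.11 without low replicate 7.

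Ependymal and ciliary markers had 9 higher means and 1 lower, with a median of 0.08. Cfap126 stood at 0.24, Tmem212 at 0.14 and Rarres2 at 0.09. The list lay between 6.57 and 6.90 in the choroid-bright arrays and between 6.01 and 6.54 in the others, which do not overlap. Without the bright arrays its median difference was −0.07, and it was 0.04, 0.02 and 0.03 without low replicates 1, 6 and 7 in turn. The part of adjoining tissue in these differences was not tested beyond these values.

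**Figure D4:**
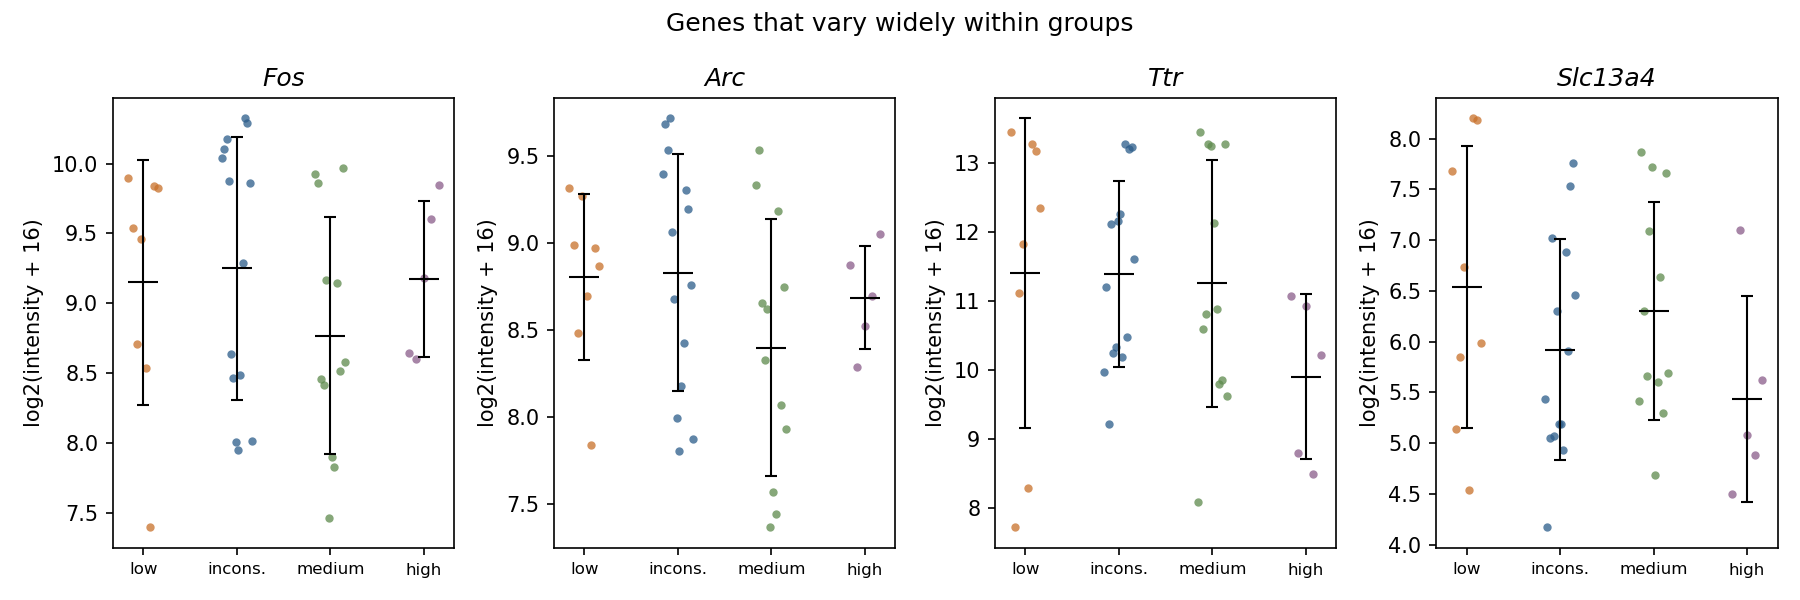
Levels of the activity-dependent genes Fos and Arc and of the choroid plexus genes Ttr and Slc13a4 as log2(intensity + 16), 1 point per array, with mean and SD. The axes start above 0 and differ between panels. Each gene spreads over more than 1 log2 unit within low and within inconsistent mice, and the groups overlap.

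Marker lists of hippocampal neurons had medians near 0, while single markers lay further from it. Dentate granule cell markers had 3 higher and 9 lower means with a median of −0.03, above 0 under both of those scalings, with Lct at −0.12, C1ql2 at −0.16 and Trpc6 at −0.14. CA pyramidal markers had 8 higher and 7 lower means and a median of 0.01. Fibcd1, a marker of CA1, was the only one of them with an unadjusted p under 0.05, at −0.21 ± 0.09, while Coch stood at 0.32 ± 0.15. Interneuron markers had a median of −0.003, with Cort at 0.13 and Cck at −0.09. The 7 neurogenesis markers had one of −0.03, with Dcx, which marks young neurons, at −0.07. The interneuron median turned sign in 6 of 20 alternatives and the neurogenesis median in 4 of 20, those scalings among them. Striatal markers, which would show tissue from outside the hippocampus, had the lowest median of all lists, −0.05, with 2 higher and 9 lower means and 0 at an unadjusted p under 0.05; the median lay above 0 without normalization. Neocortical markers had a median of 0.00, and Cux1 stood at 0.19 ± 0.09, or 0.10 without low replicate 7.

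Glial and vascular markers did not differ past the test either. Mbp, the myelin basic protein gene, ran from 13.00 to 13.21 in low mice and from 12.95 to 13.21 in inconsistent mice, with a difference of −0.04 ± 0.04. Gfap, the filament gene of astrocytes, ran from 8.91 to 10.19 against 8.90 to 9.86, with a difference of 0.14 ± 0.15, which was 0.06 without low replicate 5 and 0.24 without low replicate 2. Astrocyte markers had a median of 0.01, with the glutamate transporter gene Slc1a3 at −0.18 ± 0.09. Oligodendrocyte markers had one of −0.01, above 0 under those scalings, with Olig1 at −0.12, or −0.03 without low replicate 5, and endothelial and pericyte markers one of 0.03. Microglia markers had 3 higher and 13 lower means and a median of −0.04, above 0 without normalization and with arrays centred on their medians. Laptm5 at −0.09, Cx3cr1 at −0.10 and C1qa at −0.10 were their smallest p, all above 0.05. The single red blood cell marker tested was not counted among the lists.

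Circadian clock genes had 16 higher and 2 lower means with a median of 0.06, which lay between 0.02 and 0.14 in the 20 alternatives that gave it. Npas2, a partner of the clock activator, was the one with an unadjusted p under 0.05. It ran from 7.13 to 7.33 in low mice and from 6.96 to 7.39 in inconsistent mice, with all 8 low arrays above the inconsistent median, and differed by 0.15 ± 0.05. Rora stood at 0.14 ± 0.07 and Ciart at 0.20 ± 0.12. No hour of tissue collection was used here.

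Cholesterol synthesis and uptake genes had 14 higher and 5 lower means and a median of 0.05, with Sqle at 0.12, Lss at 0.09 and Sc5d at 0.07. Without low replicate 8, whose list mean was the highest, the median was 0.03. Interferon-response genes had 8 higher and 3 lower means with a median of 0.04. The one interferon gene with an unadjusted p under 0.05 pointed the other way, Oas1a, a sensor of double-stranded RNA, at −0.36 ± 0.15, or −0.22 without low replicate 7.

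Cytosolic heat shock chaperones had 5 higher and 16 lower means with a median of −0.03, above 0 without normalization and with arrays centred on their medians. Hspa1b, an inducible member of the HSP70 family, ran from 9.02 to 9.90 with a median of 9.39 in low mice and from 9.29 to 10.66 with a median of 9.54 in inconsistent mice. Its difference was −0.35 ± 0.15, and that of Hspa4 was −0.20 ± 0.08. Both had an unadjusted p under 0.05, and the groups overlapped in both. Mitochondrial ribosomal proteins had 22 higher and 52 lower means and a median of −0.03, likewise above 0 under those scalings, with Mrpl38 at −0.22 ± 0.09 the one with an unadjusted p under 0.05. In the other lists, the proteasome subunit gene Psma6 stood at −0.13 ± 0.05 and the ribosomal protein gene Rpl11 at −0.08 ± 0.04. The medians of both respiratory chain lists, the splicing factors, the ribosomal proteins and the proteasome lay between −0.01 and 0.00.

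**Figure D5:**
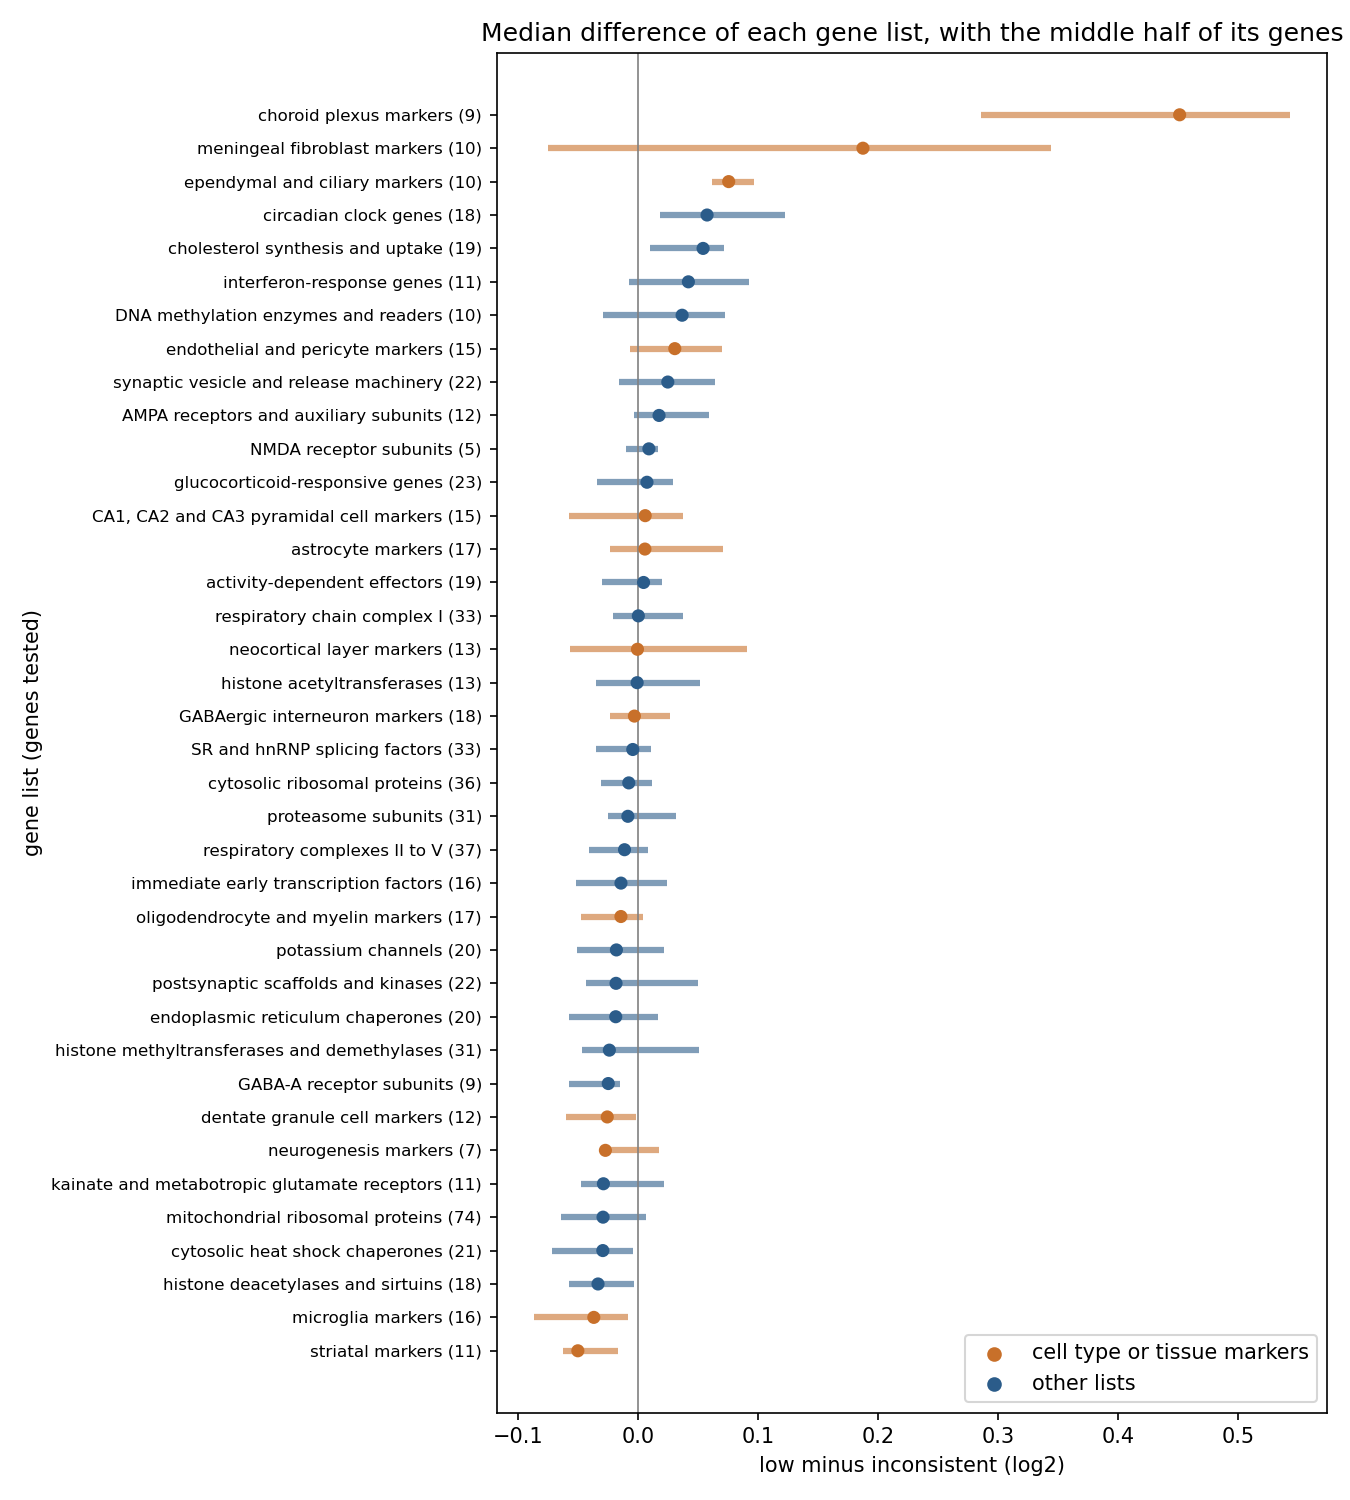
Median log2 difference, low minus inconsistent, of each of 38 gene lists (points) and the range between the lower and upper quartile of its genes (bars), with the number of genes tested in brackets. Orange marks lists of cell type or tissue markers and blue the rest. Choroid plexus markers stand at 0.45, meningeal markers at 0.19, and the lowest list at −0.05.

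In a fit over all 41 arrays, the low minus inconsistent comparison gave 962 probe sets at an unadjusted limma p under 0.05 and 0 after adjustment. The comparison of low with medium mice, which shares the low arrays, gave 816 and 0. That of medium with inconsistent mice, which shares the inconsistent arrays, gave 1071 and 0. Low minus high gave 1941, or 8.62%, and 1 after adjustment, and high minus inconsistent gave 2451, or 10.9%, and 0. Whether these counts differ was not tested.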

How the data were processed

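One Affymetrix array per mouse was analysed, 8 low and 14 inconsistent of 41. The authors deposited 1 intensity per probe set on a linear scale. Partek and RMA appear in the submitters' processing notes; their versions and roles are not given in the sources used here. Intensities of all 41 arrays were quantile-normalized and put on log2(intensity + 16). Of 45101 probe sets, 64 array controls were left out, and the 22519 of 45037 at or above the median by their mean over 41 arrays were tested with limma 3.58.1 in R 4.3.3, with Benjamini-Hochberg adjustment over all of them. Labels describe separate mice, so p-values measure the spread between mice. The step was tested on simulated data.

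Symbols came from the platform annotation: 34945 probe sets had 1, 932 had several and 9160 had none, and only the first kind was named. No gene coordinates were used apart from the RefSeq promoters. Named were the 12 genes per direction with the smallest unadjusted p and 1 symbol, since none passed adjustment, 21 genes fixed by name, and up to 3 genes with the smallest p of each described list, at the brightest probe set. A list was described if its median was among the outer 6 on either side, if 20% of its genes had an unadjusted p under 0.05, or if it marks a cell type. Ccni, Bdnf, Inip, Rbm14 and Ttr were also given at dimmer probe sets. Nr4a1, Cacng8, Ecrg4, Sulf1, Slc2a12, Rdh5, Pcolce, Lbp, Sema3f, Folr1, Kcnj13, Clic6, Dcn and Lum were named after their values had been seen. So were the list members of the other lists with an unadjusted p under 0.05. Members and lists were chosen with earlier results of these data known.

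Replicate numbers 1 to 8 occur in both groups. Alternatives covered filters, normalization, offset, arrays in the fit, variance model, test, spike-in set, choroid level, brightness, replicate block and each array left out. The number of arrays limits the precision.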

Additional observations from a re-analysis of the deposited data

Results flagged for a closer look

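Of 198 values examined in the 8 low arrays, 12 had 1 array far from the others by Dixon's criterion (a gap over 0.526 of the range), which chance does in about 1 in 20. In 9 of them the array was low replicate 5, which also had the lowest median intensity of the low group. That array stood above the others at 10.36 in Npy, 9.80 in Shank3, 8.91 in Mbd2, 7.99 in Kdm6a and 10.37 in Atf4. It stood below them at 6.70 in Mbd3, 7.40 in Hdac6, 10.04 in Olig1 and 6.22 in Pdgfrb. Low replicate 8 stood highest at 11.72 in Rheb and at 8.69 in the mean level of the cholesterol synthesis and uptake list, and low replicate 6 stood lowest at 9.08 in Tle4.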

How the results depend on the processing

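The count of adjusted calls was 0 in each of 21 alternatives and in each of 22 fits without 1 array, with smallest adjusted limma p of 0.523 and 0.252. Each of the 24 leading genes kept its direction wherever it was tested, which their choice by the smallest p on these arrays favours. Probe sets at an unadjusted p under 0.05 numbered 976 in the reported fit, 2069 with no filter, 468 with a stricter brightness filter (11260 tested), 88 without normalization, 407 with 1 probe set per gene, 1497 without the choroid-bright arrays and 1401 with 3 spike-in components, an alternative chosen after seeing the data. Leaving out single arrays moved 18 of the 21 fixed genes and 73 of 115 genes named from lists by over 1.5 times or turned their sign; low replicate 5 did so in 14 and 40 of them. Without single arrays the probe sets at that p numbered 830 to 1147, and 920 without inconsistent replicate 2. The replicate block over 8 shared numbers gave 1498 and 0 calls. Deviations of same-numbered arrays correlated from −0.02 to 0.22, 2 of 8 above 0.1, and 2 of 8 correlated best with their own number. These values do not settle what the numbers mark, and whether they follow an order of processing was not tested. Without normalization the median of all probe sets was 0.08, and 0.04 with arrays centred on their medians, and 16 and 17 of 38 list medians kept their sign. In the larger spike-in set alone the choroid list had a median of 0.05. The smaller spike-in set held 1 low array and gave no comparison of its own.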
